A study of Mus musculus with 241 samples.

Results

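Thymic progenitors with no transcript of the CD25 gene (Il2ra), of Flt3 or of Bcl11b, and with abundant transcripts of the cell division genes Top2a, Mki67 and Ube2c, were described in droplet single-cell RNA data. The cells were chosen on these values. A member had 0 unique molecular identifiers (UMIs, each standing for 1 captured transcript) of Il2ra, Flt3 and Bcl11b, at least 5 UMIs of Top2a, Mki67 and Ube2c together, and at least 1 UMI of Lmo2 and Mef2c together. The rule found 565 cells among the 13312 kept cells, 239 of 4878 in library 1 and 326 of 8434 in library 2. They are called Top2a-high progenitors below. They were compared with 763 and 1481 cells that passed the same rule but held 0 UMIs of the 3 division genes, called Top2a-zero progenitors.

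The study profiled RNA of early T-cell precursors in mouse thymus, in sorted bulk populations, in single cells on the 10x droplet platform and in single cells on a C1 chip. The 2 droplet libraries came from wild-type C57BL/6 mice whose age the labels do not give, with no treatment. Cells were sorted as lineage-negative, viable (7AAD-negative), CD44+ and Kit+, so the sort took cells with and without surface CD25. The labels do not say that the 2 libraries were made from different mice, and the p-values therefore cover only how far these libraries differ, which can be technical. A cell without an Il2ra UMI may still carry CD25 protein or uncaptured transcript, and the demand for 0 UMIs is stricter in cells sequenced more deeply.

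Progenitors that reach the thymus from blood divide many times before they commit to the T lineage. A dividing cell first copies its DNA with the replication machinery, then condenses the chromosomes, attaches them to a spindle under the control of cyclins and kinases, and leaves mitosis when the anaphase-promoting complex marks those cyclins for destruction. Top2a encodes the topoisomerase that untangles DNA during both replication and condensation, Mki67 a protein that coats mitotic chromosomes, and Ube2c the ubiquitin-conjugating enzyme of the anaphase-promoting complex. Lmo2 and Mef2c encode transcription regulators of blood progenitors, and Bcl11b one that comes on at commitment to the T lineage.

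Many promoters of genes used late in the cell cycle are known to hold a cell cycle homology region, the letters TTTGAA, and CCAAT boxes. The 250 bases before the RefSeq start of the 3 genes that chose the cells, and of Cdc20, an activator of the anaphase-promoting complex, are shown because they carry both motifs (RefSeq sequences on GRCm38.p6, written 5′ to 3′ along the gene, with matches of either motif on either strand in capitals). Top2a lies on the minus strand at chr11:99024190-99024439, Mki67 on the minus strand at chr7:135716380-135716629, Ube2c on the plus strand at chr2:164769679-164769928 and Cdc20 on the minus strand at chr4:118437344-118437593.
Top2a: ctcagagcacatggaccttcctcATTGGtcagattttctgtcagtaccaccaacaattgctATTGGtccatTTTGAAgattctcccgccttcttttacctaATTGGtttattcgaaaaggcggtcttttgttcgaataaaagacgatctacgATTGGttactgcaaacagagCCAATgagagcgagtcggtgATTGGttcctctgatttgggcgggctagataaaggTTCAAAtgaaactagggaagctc
Mki67: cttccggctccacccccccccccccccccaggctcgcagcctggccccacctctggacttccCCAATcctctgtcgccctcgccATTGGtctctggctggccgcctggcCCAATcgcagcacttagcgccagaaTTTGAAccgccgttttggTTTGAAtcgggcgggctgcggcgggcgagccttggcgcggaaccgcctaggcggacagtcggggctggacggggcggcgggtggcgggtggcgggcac
Ube2c: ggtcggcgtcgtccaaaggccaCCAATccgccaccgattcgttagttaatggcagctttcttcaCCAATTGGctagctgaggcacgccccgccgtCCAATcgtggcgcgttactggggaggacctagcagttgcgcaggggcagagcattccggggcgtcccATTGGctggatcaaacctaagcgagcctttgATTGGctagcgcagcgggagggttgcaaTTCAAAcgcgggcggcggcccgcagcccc
Cdc20: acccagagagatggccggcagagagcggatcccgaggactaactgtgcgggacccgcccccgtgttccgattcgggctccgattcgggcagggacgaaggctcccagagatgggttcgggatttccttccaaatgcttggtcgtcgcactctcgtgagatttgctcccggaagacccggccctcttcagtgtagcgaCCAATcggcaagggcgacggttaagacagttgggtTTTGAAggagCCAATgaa

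The Top2a window held 2 matches of TTTGAA and 6 of CCAAT, Mki67 held 2 and 3, Ube2c held 1 and 6, and Cdc20 held 1 and 2. In Ube2c, 1 CCAAT match overlaps another on the opposite strand. Over both strands, 16.3% of the 27025 genes with a window held TTTGAA, 34.5% held CCAAT and 5.73% held both. Of the 17 listed mitotic kinases and cyclins with a window, 5 held TTTGAA and 15 held CCAAT. Of 13 chromosome condensation genes, 7 held TTTGAA and 8 held CCAAT, of 24 spindle genes 8 and 15, and of 13 mitotic exit genes 3 and 8. Of 16 kinetochore genes, 2 held TTTGAA (12.5%, below the share of all genes) and 9 held CCAAT, and of 31 DNA replication genes 4 and 19. None of 16 quiescence-associated genes held TTTGAA and 10 held CCAAT, and of 18 nucleolar growth genes 1 and 2 did. A match describes these letters and is not evidence of a bound site.

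Top2a was the leading gene of the 3 that chose the members. It was detected in 98.7% and 99.7% of them in libraries 1 and 2, with a median of 8 and 7 UMIs. Mki67 was detected in 84.5% and 74.8%, and Ube2c in 56.9% and 54.9%. All 3 genes were detected together in 50.6% and 44.5% of members. Of the 2 progenitor genes, Mef2c was detected in 95.4% of members in each library and Lmo2 in 57.3% and 45.4%. In 8.79% and 22.4% of members a single UMI met the Lmo2 and Mef2c rule.

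The name mitotic fits only some of the members. In the 43.1% and 45.1% of members with 0 UMIs of Ube2c, the 39 DNA replication genes summed to 5180 and 4878 CPM (UMIs summed over the cells of a class and scaled to a common total) in libraries 1 and 2, and Ccnb1, a cyclin of mitotic entry, stood at 17.7 and 18.7 CPM. In members with 3 or more Ube2c UMIs, 33.1% and 29.4% of all members, the replication genes summed to 2256 and 2137 CPM. There Ccnb1 stood at 142.3 and 154.3 CPM, Cdc20 at 135.8 and 201.9 CPM against 19.3 and 24.1 CPM without Ube2c, and the mitotic kinase gene Plk1 at 61.9 and 87.7 CPM against 9.64 and 8.55 CPM. The members therefore span cells rich in replication transcripts and cells rich in transcripts of mitosis, and are called by their leading gene here.

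The progenitor genes Spi1 and Bcl11a, which did not choose the cells, were present in both kinds of member. Spi1, which encodes the progenitor factor PU.1, stood at 105.3 and 91.7 CPM in members without Ube2c and at 117.3 and 133.2 CPM in members with 3 or more Ube2c UMIs. Bcl11a, another progenitor regulator, stood at 174.3 and 184.2 CPM without Ube2c and at 156.1 and 166.99 CPM with 3 or more. The rule for members demanded transcripts of Lmo2 or Mef2c, so the joint presence of these genes follows from the choice of cells. Mef2c stood at 296 and 282 CPM against 282 and 304 CPM. Lmo2, at 68.3 and 52.9 CPM without Ube2c, stood at 121.96 and 121.5 CPM in members with 3 or more Ube2c UMIs. These are values of each library, with no test.

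Over all progenitors, replication transcripts were highest at moderate levels of the 3 division genes and mitotic transcripts at the highest levels. In library 1 the 39 replication genes summed to 1723 CPM at 0 UMIs of the 3 genes, 3388 at 1 to 4, 4919 at 5 to 9, 4199.5 at 10 to 19 and 2237 at 20 or more. In library 2 the same sums were 1761, 3275, 4803, 3306 and 2195 CPM. The 21 mitotic kinases and cyclins summed to 311 CPM at 0 UMIs and 2785 CPM at 20 or more in library 1, and to 334 and 3002 CPM in library 2. The median depth was also higher in each next class, from 6447 to 13505.5 UMIs per cell in library 1 and from 5031 to 10844 in library 2.

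**Figure D1:**
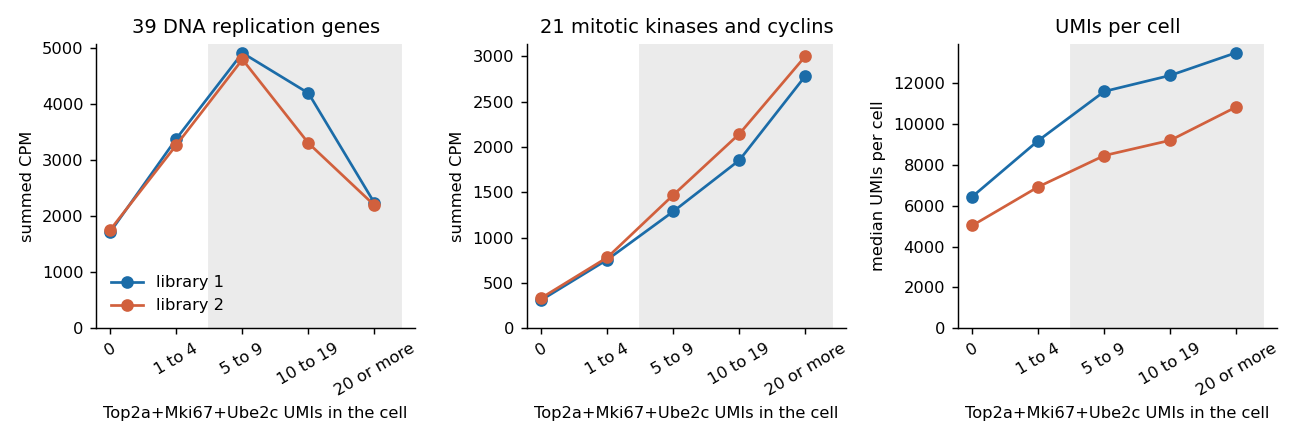
Summed CPM of 39 DNA replication genes (left) and of 21 mitotic kinases and cyclins (middle), and median UMIs per cell (right), by the number of Top2a, Mki67 and Ube2c UMIs in a progenitor (x axis); each point is 1 library and the grey band marks the members. Replication transcripts were highest at 5 to 9 UMIs (4919 and 4803 CPM), whereas the mitotic genes and the depth were highest at 20 or more.

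Cells just inside and just outside the threshold are described without a test. The 24 and 47 members with exactly 5 UMIs had 4880 and 4832 CPM of the replication genes and 1055.5 and 1452 CPM of the mitotic kinases and cyclins. The 41 and 69 cells just outside, with exactly 4 UMIs, had 4636 and 4591 CPM and 1136 and 1105 CPM. The 406 and 675 progenitors with 1 to 4 UMIs entered neither class.

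Top2a-high cells made up 17% of progenitors in library 1 (95% exact binomial interval 15% to 19%) and 13.1% in library 2 (11.8% to 14.5%), intervals that cover counting error only. With every cell thinned to 4000 UMIs before the rule was applied, the shares were 8.51% and 7.53%. Thinning also changed which cells counted as progenitors, 1468 and 2097 against 1408 and 2482 before it. A cell can lose its UMIs of Il2ra, Flt3 or Bcl11b, and cells under 4000 UMIs were left out. Members held a median of 12308 and 9115 UMIs per cell in libraries 1 and 2, against 6447 and 5031 in Top2a-zero progenitors, and 2936 and 2544 genes against 1927 and 1699. Mitochondrial transcripts were at a median of 3.53% and 4.02% in members and 3.77% and 4.15% in Top2a-zero cells. Whether the added UMIs are larger cells or pairs of cells in 1 droplet cannot be told apart, since no doublet caller was used. Of 57 barcodes found in both libraries, 3 belonged to a member in 1 of them, and none was a member in both.

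Cells of other types in the sort would carry markers of their own. Of 6 granulocyte markers, S100a8, S100a9, Ngp and Camp had no UMI in the members of library 1, yet 6 of 239 members there held 3 or more granulocyte marker UMIs, and the markers summed to 137.5 CPM against 5.37 in Top2a-zero cells. In library 2 this was 1 of 326 members, and 12.1 against 52.5 CPM. T-cell CD3 transcripts reached 3 UMIs in 0 of 239 and 1 of 326 members, erythroid, mast cell and megakaryocyte markers in 1 and 0, B-cell markers in 2 and 0, and dendritic markers in 3 and 4. Natural killer markers reached 3 UMIs in 3 and 1 members, but in 26 of 763 and 67 of 1481 Top2a-zero cells. The count of 0 among 239 allows a share of cells with 3 such UMIs of up to 1.26%.

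To ask how these progenitors differ from progenitors without division transcripts, UMIs were summed per library and class and tested with edgeR's quasi-likelihood test with the library as a block. Both classes come from each library. Of 10572 genes tested, 3516 (33.3%) passed a Benjamini-Hochberg adjusted p of 0.05, 1909 higher (18.1%) and 1607 lower (15.2%) in Top2a-high cells. The classes were cut from transcripts of the same cells, so the shares are a background for the groups that follow and nothing is read from them. Because the classes differ in depth, each comparison was repeated with Top2a-zero and Top2a-high cells matched on UMIs per cell, which left 286 progenitors of each class, 98 of them in library 1, with medians of 10064 and 10533 UMIs in library 1 and 8011.5 and 8093 in library 2. In these matched cells 754 of 8830 genes (8.54%) passed, 468 higher (5.3%) and 286 lower (3.24%), and 649 of the 754 also passed in all cells. Of the 1458 genes lower in all cells that both fits tested, 86.9% kept their sign, but their median log2 fold change went from -0.54 to -0.30.

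The division genes followed the choice of cells and are described without a test. Against Top2a-zero cells, the median log2 fold change was 4.06 over 21 mitotic kinases and cyclins, 3.41 over 27 spindle and cytokinesis genes, 3.66 over 20 kinetochore genes, 1.69 over 17 condensation genes, 0.74 over 13 mitotic exit genes and 1.33 over 39 replication genes, beside -0.01 over all genes tested. In matched cells these medians were 2.94, 3.15, 3.09, 1.30, 0.84 and 0.65. Genes outside the division lists were named by the size of their difference. Hist1h1b, a linker histone made when DNA is copied, stood at 106.6 and 114.6 CPM in Top2a-high and 2.63 and 1.73 CPM in Top2a-zero progenitors (values scaled by edgeR from here on, library 1 first). Rad51ap1, a partner of the recombinase of DNA repair, stood at 73.8 and 79.9 against 6.47 and 6.69 CPM. The non-coding Lockd, a neighbour of the Cdk inhibitor gene Cdkn1b, stood at 254 and 259 against 28.7 and 26.5 CPM, and Rnf26 at 67.3 and 81.2 against 19.2 and 21.8 CPM. Hist1h2ap, Hist1h1e and Hist1h4i (log2 5.94, 2.80 and 2.54) have near-identical copies, and their counts are uncertain. Knstrn, Atad2 and Hirip3 differed by 2.37, 2.00 and 1.94.

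Among the G1 regulators and Cdk inhibitors, 9 of 17 tested genes were higher (background 18.1%) and 0 were lower (background 15.2%), with a median of 0.29. In matched cells 5 of 17 were higher (background 5.3%) and 1, Ccnd2, was lower (background 3.24%), with a median of 0.14. Ccnd2 was at -0.27 there (adjusted p = 0.037). E2f7 and E2f8, repressors that close the replication programme, were at log2 fold changes of 4.11 ± 0.44 and 5.08 ± 0.27 (standard error, approximated from the F statistic). Cdkn2c, an inhibitor of Cdk4 and Cdk6, stood at 15.1 and 27.2 CPM against 1.21 and 2.60 CPM (3.41 ± 0.26). In matched cells these 3 genes were at 3.85, 3.51 and 3.06. Both fits compare classes cut on division transcripts, so genes that follow division can differ through the choice itself. Cdk4 itself was at 0.40 ± 0.05 in all cells and 0.07 in matched cells, where it did not pass (adjusted p = 0.67).

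Few regulators of the progenitor state passed in the smaller set of matched cells. In all cells 9 of 19 tested progenitor regulators were lower (background 15.2%) and 1, Hoxa9, was higher, with a list median of -0.27. In matched cells 2 of 18 were lower, Gfi1b and Mycn, and 0 were higher, with a median of -0.10. Spi1 stood at 120.7 and 111.8 CPM in Top2a-high and 158.4 and 156.7 CPM in Top2a-zero progenitors, lower in both libraries (-0.44 ± 0.07, adjusted p = 7.9e-07), but at -0.34 in matched cells (adjusted p = 0.11). Hhex, at 227.3 and 216.9 against 278 and 260 CPM, and Bcl11a, at 176.1 and 177.8 against 197.6 and 204.04 CPM, were at -0.27 and -0.18 in all cells. In matched cells both were near 0, at 0.03 and 0.0002. Lyl1 (-0.30), Hoxa9 (0.31) and Meis1 (-0.25, adjusted p = 0.28) did not pass in matched cells, at -0.19, 0.15 and -0.26. Mycn, a growth-promoting factor of the Myc family, stood at 75.3 and 79.2 against 113.7 and 105.1 CPM and was lower both in all cells (-0.50 ± 0.09) and in matched cells (-0.53, adjusted p = 0.016). Gfi1b, a repressor needed for erythroid and megakaryocyte cells, was at -1.41 ± 0.24 and -2.05 in the same fits.

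The T-lineage factor Tcf7 was lower in Top2a-high progenitors. Tcf7, which encodes the factor TCF1 induced by Notch signalling, stood at 63 and 63.9 CPM in Top2a-high and 161.4 and 148.2 CPM in Top2a-zero progenitors. The log2 fold change was -1.28 ± 0.09 (adjusted p = 1.4e-23) in all cells and -0.53 (adjusted p = 0.0077) in matched cells, so the size depended on the match. Of 22 tested T-lineage regulators, 12 were lower and 1, Tcf3, was higher in all cells (median -0.42). In matched cells 2 of 19, Tcf7 and Myb, were lower and 0 were higher (median 0.02). Ikzf2, Tox and Gata3 were lower in all cells (-0.90, -0.87 and -0.47) and at 0.13, 0.05 and 0.12 in matched cells, with adjusted p of 0.76, 0.93 and 0.86. Hes1, a target of Notch, and the receptor gene Notch1 were at -0.62 and -0.41 in all cells and at -0.07 and -0.15 in matched cells, where neither passed.

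Among T-cell receptor and recombination genes, 3 of 15 tested were lower, Dntt, Lat and Cd247, and 0 were higher (median -0.34). This is near the background of 15.2% lower, so nothing is read from the count. In matched cells 2 of 13 were lower and 0 were higher (median -0.07). Dntt, which encodes the transferase that adds bases at receptor gene joints, stood at 237 and 322 CPM in Top2a-high and 359 and 430 CPM in Top2a-zero progenitors. Its log2 fold change was -0.50 ± 0.06 in all cells and -0.50 in matched cells (adjusted p = 5.1e-05). Lat, an adaptor of the receptor signal, stood at 53.3 and 60.5 against 83.1 and 86.3 CPM, and was at -0.57 ± 0.09 in all and -0.69 in matched cells (adjusted p = 0.0018). Cd247, at -1.20, did not pass in matched cells (-1.05, adjusted p = 0.10).

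The quiescence-associated genes that were lower did not keep their calls in the smaller set of matched cells. In all cells 10 of 18 were lower and 0 were higher (median -0.73), among them Btg1, an anti-proliferation factor, at 76.4 and 54.7 CPM in Top2a-high against 135.7 and 104.7 CPM in Top2a-zero progenitors. In matched cells 0 of 17 were lower and 2, Ccng2 and Klf6, were higher (median -0.13). Ypel3, Pik3ip1, Tsc22d3 and Btg1, at -0.93, -0.89, -0.95 and -0.88 in all cells, were at 0.04, -0.27, -0.09 and -0.13 in matched cells, with adjusted p of 0.23 or more. Among the nucleolar growth genes, in all cells 18 of 24 were higher and 1, Myc, was lower (median 0.41), and in matched cells 0 were higher and 2, Npm1 and Myc, were lower (median -0.03). Odc1, the first enzyme of polyamine synthesis, stood at 123.2 and 103.7 CPM against 59.3 and 58.5 CPM and went from 0.94 ± 0.09 in all cells to 0.02 in matched cells. Nop10 and Nhp2, parts of the complex that modifies ribosomal RNA, went from 0.62 and 0.63 to 0.10 and 0.16, and Nop56 from 0.60 to 0.27.

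**Figure D2:**
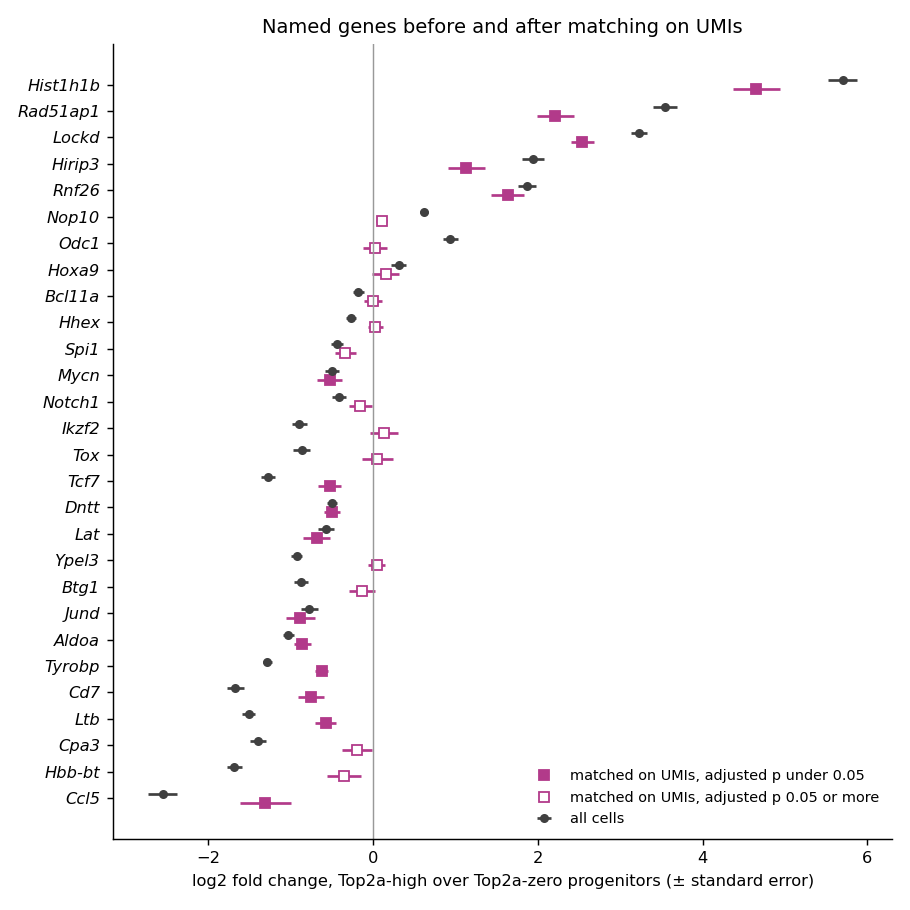
Log2 fold change of Top2a-high over Top2a-zero progenitors (x axis) for named genes (y axis), in all cells (grey circles) and in cells matched on UMIs (squares, filled where the adjusted p was under 0.05); bars are standard errors. Tcf7, Dntt, Lat, Mycn, Aldoa, Tyrobp and Cd7 stayed below 0 in matched cells, whereas Ypel3, Tox, Ikzf2, Hhex and Odc1 moved to between 0.02 and 0.13.

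Metabolic and response genes gave smaller groups. Of 16 glycolysis genes, 6 were higher and 3 were lower in all cells, and in matched cells 0 of 14 were higher and 4, Gapdh, Gpi1, Ldha and Aldoa, were lower. The direction of 2 called genes reversed, Ldha from 0.31 to -0.58 and Gapdh from 0.21 to -0.19 (matched adjusted p = 6.7e-06 and 0.048). Aldoa, the aldolase of glycolysis, stood at 182.6 and 156.7 CPM in Top2a-high and 368 and 323 CPM in Top2a-zero progenitors (-1.03 ± 0.07, and -0.86 in matched cells with adjusted p = 1.4e-10). Pgam1 and Tpi1, higher in all cells at 0.51 and 0.38, were at -0.08 and -0.14 in matched cells. Of 17 interferon-stimulated genes, 10 were lower and 0 were higher in all cells (median -0.47), and 4 of 14, Ifitm3, Bst2, Irf9 and Ifit1, were lower in matched cells (median -0.40). Ifit1, at 6.84 and 10.5 against 23.1 and 24.9 CPM, was at -1.45 ± 0.22 and, matched, at -1.78 (adjusted p = 0.021). Of 10 immediate early genes, 6 were lower, and in matched cells 2 of 7, Jund and Dusp2, at -0.89 and -0.43. Jund, a subunit of the AP-1 factor, stood at 40.3 and 48.3 against 76.2 and 76.6 CPM.

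Several genes of blood cell surface and signalling were lower in Top2a-high progenitors. Cd7, an early lymphoid surface protein, stood at 49 and 50.0 CPM against 169.5 and 147.9 CPM in Top2a-zero cells (-1.67 ± 0.10, and -0.76 in matched cells with adjusted p = 0.00031). Ltb, which encodes lymphotoxin beta, stood at 91.1 and 85 against 252 and 251 CPM (-1.51 ± 0.08, matched -0.58). Tyrobp, an adaptor of activating receptors in natural killer and myeloid cells, stood at 267 and 248 against 644 and 608 CPM (-1.28 ± 0.05, matched -0.63 with adjusted p = 1.3e-08). Its partner Fcer1g was at -1.12 and, matched, at -0.76. Cd7, Ltb and Tyrobp did not overlap between the classes, but the share of all genes that do so was not counted. Named genes were in part chosen by their difference, so nothing is read from it.

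Ccl5, a chemokine of natural killer and T cells, was lowest of the named genes, at 13.7 and 8.50 CPM against 53.4 and 75.6 CPM (-2.56 ± 0.17, matched -1.31). Without the cells that held 3 or more UMIs of defining markers of other types, which include Ccl5 itself among the natural killer markers, its fold change was -1.56. Among the other largest differences, Pbxip1, Kdm5b, Tifa and Samhd1 were at -1.70, -1.65, -1.58 and -1.49 and passed in matched cells at -0.86, -0.82, -1.07 and -0.94. Hbb-bt, a beta-globin gene with near-identical copies, Sytl1 and the mast cell protease gene Cpa3 were at -1.69, -1.53 and -1.40 in all cells and did not pass in matched cells (-0.36, -0.61 and -0.20). The red cell transcript Hbb-bt was detected in 40.2% and 24.2% of members and in 30.9% and 16.9% of Top2a-zero cells.

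Myeloid genes were called in both directions in all cells. Of 13 tested, 5 were higher, Prtn3, Elane and Ctsg, which encode granule proteases, and Ms4a3 and Ly86. Tyrobp, Fcer1g, Fcgr3 and Ctss, 4 genes, were lower. The libraries went opposite ways in the 6 granulocyte markers, Elane and Ms4a3 among them. Without edgeR scaling these summed to 137.5 CPM in members against 5.37 in library 1, and 12.1 against 52.5 in library 2. In matched cells 0 of 11 were higher and 5 were lower, and the direction of each of the 4 genes called higher that could be matched turned. Prtn3 and Ctsg went from 0.96 and 0.83 to -1.21 and -0.99 and passed in both directions, while Elane and Ms4a3 went from 1.25 and 1.35 to -0.61 and -0.92, with adjusted p of 0.39 and 0.23. Ly86 was not tested in matched cells. In library 1, 6 of 239 members and 1 of 763 Top2a-zero cells held 3 or more granulocyte marker UMIs. In library 2 these were 1 of 326 members and 8 of 1481 Top2a-zero cells. The part of these cells alone was not tested. The fit without cells holding defining markers drops them together with cells of other types, from both classes. Of 25 surface and cytokine receptors, 12 were lower and 3, Cxcr4, Thy1 and Cd48, were higher in all cells. In matched cells 1 of 23 was lower, Cd7. Cxcr4, the receptor of the chemokine CXCL12, was at 0.85 in all and 1.07 in matched cells. Klrd1 and Lag3, at -1.86 and -1.33 in all cells, were at 0.10 and 0.19 in matched cells.

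Whether division goes with the same changes after the CD25 transcript appears was asked by taking the same contrast in CD25-transcript cells, which held at least 1 Il2ra UMI and 0 Bcl11b UMIs, with no demand on Flt3, Lmo2 or Mef2c. These were 293 and 325 Top2a-high and 734 and 1152 Top2a-zero cells, with medians of 12707 and 9454 UMIs in the Top2a-high cells. The difference between the 2 changes passed in 12 of 10572 genes (0.114%), 4 with a larger change in progenitors (0.0378%) and 8 with a smaller or more negative one (0.0757%), and 621 genes had an unadjusted p under 0.05. None of the 12 passed in cells matched on UMIs, where 4 of 8830 genes did (0.0453%), Sox4 and Cox7a2l in the positive direction (0.0227%) and Ldha and 2810417H13Rik in the negative (0.0227%), genes named after the values were seen. A p above the threshold does not show that the other genes changed alike.

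The 4 genes with the larger change all belong to the division lists. H2afx, the histone variant that is phosphorylated at broken DNA, stood at 628 and 632 CPM in Top2a-high and 88 and 87.7 CPM in Top2a-zero progenitors, and at 504 and 449 against 95.7 and 102.5 CPM in CD25-transcript cells. The difference of the 2 changes was 0.58 ± 0.09 (adjusted p = 1.4e-05), and 0.65 in matched cells with adjusted p = 0.053. Tubb4b, Cks2 and Smc4, which encode a tubulin, a Cdk subunit and a condensin, differed by 0.58, 0.45 and 0.42.

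The 8 genes with a negative difference include Ccnd3 and the T-cell genes Lat and Tcf7. Ccnd3, a cyclin of G1, stood at 98 and 105.4 CPM in Top2a-high and 97.9 and 107.5 CPM in Top2a-zero progenitors, but at 156.97 and 183.3 against 108.3 and 117.4 CPM in CD25-transcript cells. Its difference was -0.61 ± 0.11 (adjusted p = 0.00039), and -0.71 in matched cells with adjusted p = 0.083. Lat differed by -0.70, its values in CD25-transcript cells being 126.98 and 143.9 CPM in Top2a-high and 120.3 and 126.95 CPM in Top2a-zero cells. Tcf7 differed by -0.60 ± 0.11 (adjusted p = 0.00066), since its levels there were 157.2 and 171.7 against 266 and 259 CPM, but in matched cells the sign turned to 0.19. Hbb-bt, Hist1h2bc, Fyb, Cpa3 and H3f3b differed by -0.94, -0.79, -0.67, -0.59 and -0.24.

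**Figure D3:**
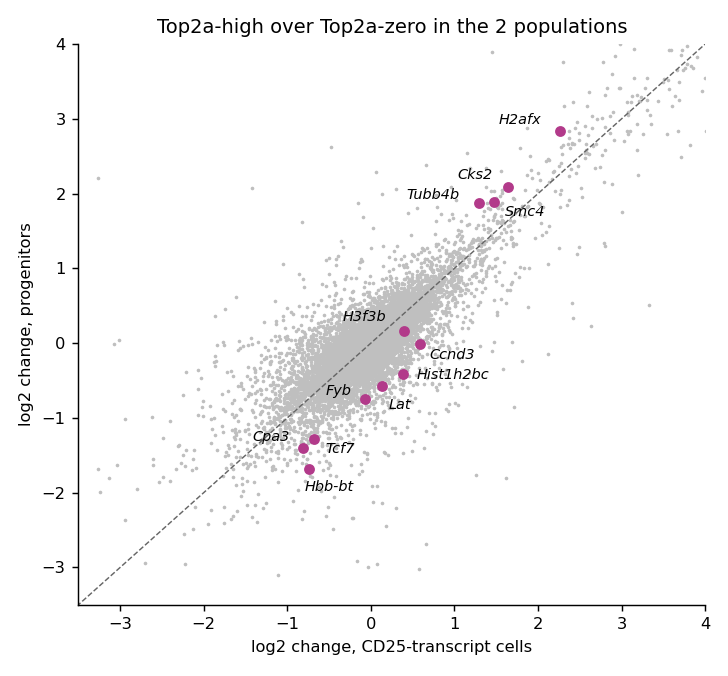
Log2 change of Top2a-high over Top2a-zero cells in CD25-transcript cells (x axis) and in progenitors (y axis), 1 grey point per gene, with genes beyond the axis limits not drawn; the dashed line marks equal change. The 12 genes whose changes differed (purple) lie off the line, H2afx by 0.58 above it and Hbb-bt by 0.94 below it.

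The Top2a-high cells of the 2 populations passed the same division rule and had similar depth, and were compared directly. Of 10572 genes, 1061 (10.0%) passed, 653 higher (6.18%) and 408 lower (3.86%) in Top2a-high progenitors. In the UMI-matched subset 490 of 8830 passed (5.55%), 313 higher (3.54%) and the rest lower (2.0%). That match was made between Top2a-high and Top2a-zero cells within each population. It did not match the 2 populations to each other, so a call lost in the smaller subset says nothing on depth between them. Il2ra, Flt3, Lmo2 and Mef2c chose the cells and are left out. The populations were chosen by different demands on Il2ra, on Flt3 and on Lmo2 and Mef2c, and genes that follow any of these differ through the choice itself. The part of the Flt3 demand was not tested.

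Of 19 tested progenitor regulators, 8 were higher in Top2a-high progenitors, 2 (Runx1 and Nfe2) were lower and the median was 0.28. In the UMI-matched subset 6 of 18 were higher and 2 were lower. Hoxa9, a homeobox factor of blood progenitors, stood at 75.3 and 99.6 CPM in Top2a-high progenitors and 30.3 and 29 CPM in Top2a-high CD25-transcript cells (1.55 ± 0.12, adjusted p = 7.3e-19). Hoxa7 of the same gene cluster stood at 94.7 and 96.5 against 52.7 and 57.7 CPM, and Meis1, a cofactor of HOXA9, at 17.6 and 18.4 against 6.48 and 6.72 CPM. Hhex, at 227.3 and 216.9 against 140 and 128.3 CPM, and Bcl11a, at 176.1 and 177.8 against 132.1 and 119.5 CPM, differed by 0.72 and 0.49. Spi1 differed by 0.43 ± 0.09, and by 0.33 in the subset of the UMI match, where it did not pass (adjusted p = 0.19). Lyl1 and Mycn were at -0.06 and 0.03, with adjusted p of 0.75 and 0.90.

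Of 25 surface and cytokine receptors, 13 were higher and 5 were lower, with a median of 0.67, and in the UMI-matched subset 7 of 23 were higher and 5 were lower (median 0.45). Cd34, the stem and progenitor cell sialomucin, stood at 286 and 308 CPM against 121.8 and 99.6 CPM (1.42 ± 0.07, adjusted p = 1.1e-28). Egfl7, a secreted vascular factor, stood at 216.5 and 286 against 94 and 107.2 CPM, and Cd27, a receptor of the tumour necrosis factor family, at 270 and 268 against 172.4 and 143.6 CPM. Il7r, the receptor for interleukin 7, stood at 7.56 and 15 against 39.4 and 39.7 CPM (-1.80 ± 0.19), and the integrin gene Itga4 at 122.8 and 120 against 237 and 229 CPM (-0.94 ± 0.07). In each of these 5 genes the 2 populations did not overlap, but the share of all genes that do so was not counted. Nothing is read from it, since named genes were in part chosen by their difference.

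T-lineage genes differed in both directions, and fewer passed in the UMI-matched subset, which holds fewer cells. Of 22 tested regulators, 11 were lower and 2, Id2 and Satb1, were higher in Top2a-high progenitors (median -0.40). In the subset 4 of 19, Tcf7, Lef1, Ikzf2 and Myb, were lower and 3, Id2, Satb1 and Tox, were higher (median -0.29). Tcf7 stood at 63 and 63.9 CPM against 157.2 and 171.7 CPM (-1.37 ± 0.09, adjusted p = 6.6e-23, and -0.93 in the UMI-matched subset). Ikzf2 and Myb differed by -0.73 and -0.43. Gata3, at 27.7 and 33.7 against 50.5 and 33.6 CPM, differed in library 1 only (-0.45 ± 0.14, adjusted p = 0.026) and lost the call in 8 alternatives. Notch1, at 86.8 and 113.2 against 123.2 and 135.4 CPM, was at -0.37 and lost it in 4. Of 15 receptor and recombination genes, 8 were lower and 1, Dntt, was higher (median -1.17), and in the subset 3 of 13, Cd3g, Lck and Lat, were lower and Dntt was higher (median -0.57). Lat and the kinase gene Lck differed by -1.25 ± 0.09 and -0.53 ± 0.06. Dntt stood at 237 and 322 against 120 and 154.6 CPM, 1.02 ± 0.08.

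The CD3 genes, chains of the T-cell receptor complex, rested on few cells. Cd3g stood at 2.16 and 4.08 CPM against 25.9 and 25.4 CPM (-3.03 ± 0.32), yet 9 of 293 and 10 of 325 Top2a-high CD25-transcript cells held 3 or more CD3 UMIs. The defining markers of other types include the CD3 genes themselves, so leaving out cells by them removes CD3 UMIs by choice. Without those cells Cd3g was at -0.46 (adjusted p = 0.70). Cd3e was then at -0.54 (adjusted p = 0.69), against -2.33 in all cells. Cd3d, at -2.26, and Cd3e lost their calls in the smaller UMI-matched subset, and all 3 genes lost them without the Lmo2 and Mef2c rule. Fgf3, a fibroblast growth factor gene, at 5.04 and 7.14 against 68.6 and 76.1 CPM (-3.55 ± 0.19), Fam169b (-4.46), Ly6d (-1.96), Rapgef3 (-1.63) and Aqp11 (-1.50) completed the named genes that were lower.

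**Figure D4:**
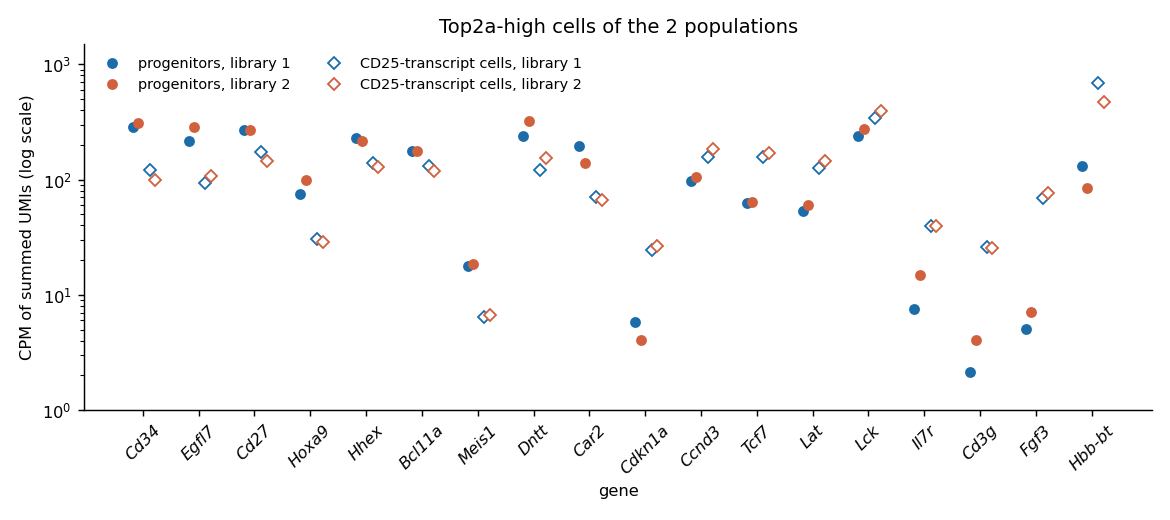
CPM of summed UMIs (y axis, log scale) of named genes (x axis) in Top2a-high progenitors (filled circles) and Top2a-high CD25-transcript cells (open diamonds), 1 point per library. Cd34 stood at 286 and 308 against 121.8 and 99.6 CPM and Tcf7 at 63 and 63.9 against 157.2 and 171.7 CPM. Every gene shown was separated in both libraries, but the share of all genes so separated was not counted. The genes were in part chosen by their difference, so nothing is read from it.

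Replication and mitotic genes differed in opposite directions. Of 39 replication genes, 12 were lower in Top2a-high progenitors and 0 were higher (median -0.21), and in the UMI-matched subset 4, E2f1, Rrm2, Pcna and Dut, were lower and 0 were higher (median -0.23). E2f1, an activator of replication genes, stood at 49.3 and 46.6 against 72.9 and 81 CPM (-0.69 ± 0.11, adjusted p = 7.8e-07). Rrm2, a subunit of ribonucleotide reductase, stood at 109.5 and 89.4 against 133.5 and 134.4 CPM, and Lig1 and Mcm3 differed by -0.32 and -0.36 but did not pass in the subset (adjusted p of 0.17 and 0.20). Of 21 mitotic kinases and cyclins, 7 were higher and 1, Cdc25b, was lower (median 0.23), and of 27 spindle genes 10 were higher and 0 were lower. In the subset 3 mitotic kinases and cyclins, Aurka, Cks2 and Cdkn3, and 6 spindle genes were higher, and 0 of either list were lower. Cdc20 stood at 70.6 and 92.8 against 50.3 and 46.7 CPM (0.75 ± 0.11), and the centromere histone gene Cenpa at 257 and 288 against 183.2 and 152.2 CPM (0.69 ± 0.08). Nusap1, Arl6ip1, H2afx and Hmgb2 differed by 0.42, 0.45, 0.40 and 0.22. The share of cells with Ube2c, one of the genes that chose both classes, was 56.9% and 54.9% in progenitors and 56.7% and 50.5% in CD25-transcript cells.

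Regulators of G1 differed in both directions. Cdkn1a, which encodes the Cdk inhibitor p21, stood at 5.76 and 4.08 CPM in Top2a-high progenitors against 24.3 and 26.6 CPM (-2.38 ± 0.24, adjusted p = 4.3e-13). Ccnd1 stood at 35.3 and 18.7 against 7.84 and 5.81 CPM (1.97 ± 0.24), Ccnd3 at 98 and 105.4 against 156.97 and 183.3 CPM (-0.74 ± 0.08), and Cdk6 at 534 and 597 against 614 and 757 CPM (-0.27 ± 0.05). Of 17 genes in the list, 2 were higher (Ccnd1 and Ccnd2) and these 3 were lower. Of 18 quiescence-associated genes 4 were higher, Ypel3, Tsc22d3, Klf6 and Txnip, and 0 were lower (median 0.32), against 2 higher of 17 in the UMI-matched subset.

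Myeloid and interferon-stimulated transcripts were higher in Top2a-high progenitors. Of 13 myeloid genes tested, 10 were higher and 1, Fcer1g, was lower (median 1.51), and in the UMI-matched subset 6 of 11 were higher and 1 was lower. Lyz2, the lysozyme gene of myeloid cells, stood at 100.8 and 84 against 40.5 and 36.1 CPM (1.26 ± 0.12, adjusted p = 6.8e-15). The granule genes depended on the library, Prtn3 standing at 142.6 and 24.8 against 21.9 and 0.61 CPM and Mpo at 227.3 and 132.6 against 115.1 and 90.7 CPM. Both lost their call with DESeq2, and without cells holding defining markers of other types, Prtn3 went from 2.79 to 1.61 and Mpo from 0.79 to 0.40. In library 1, 6 of 239 members and 1 of 293 Top2a-high CD25-transcript cells held 3 or more granulocyte marker UMIs. In library 2 these were 1 of 326 and 0 of 325, and the part of these cells alone was not tested. Of 17 interferon-stimulated genes, 7 were higher and 0 were lower (median 0.54), with 3 of 14 higher in the subset. The 7 include Ifi27l2a (1.26), Ifitm3 (0.62), Oasl2 (1.05) and Rtp4 (0.70).

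Of 6 tested mast cell, erythroid and megakaryocyte genes, 1, Car2, was higher and 3, Cpa3, Hbb-bt and Itga2b, were lower, and all 4 passed in the UMI-matched subset. Car2, a carbonic anhydrase, stood at 195.9 and 140 against 71.3 and 66.9 CPM (1.28 ± 0.09). Cpa3, Hbb-bt and Itga2b were at -1.30, -2.45 and -3.40, with Cpa3 at 69.5 and 35 against 146.97 and 107.6 CPM. Of 8 natural killer genes, 1, Nkg7, was higher at 0.46 ± 0.06 and 4 were lower, Gzma at -2.97, Zbtb16 at -2.65, Gzmb at -2.10 and Ccl5 at -1.33. In the subset Nkg7 was higher and Gzma lower among 4 tested, and Ccl5 was at -0.93 (adjusted p = 0.056). Gzma, itself one of the defining natural killer markers, lost its call without cells holding defining markers of other types (-1.48). Evl, Rgs1, Cd53 and Emb, which encode an actin regulator, a regulator of G protein signalling, a tetraspanin and an adhesion protein, were higher by 1.71, 1.52, 1.19 and 1.06.

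The C1 chip gave a small second view of the same cell kind, in full-length libraries whose normalized fragment values (FPKM) hold no recoverable depth here. Among cells with at least 1000 genes above 1 FPKM, 28 had Il2ra, Flt3 and Bcl11b at 1 FPKM or less and Lmo2 or Mef2c above it. Of these, 9 had none of Top2a, Mki67 and Ube2c above 1 FPKM, 8 had 1, 5 had 2 and 6 had all 3. The labels name no animal for these cells, so each set is 1 sample and no test was made. In the 11 cells with 2 or 3 of the genes, Spi1 was above 1 FPKM in 10 and Cd34 in 10, against 6 and 9 of the 9 cells with none. Tcf7 had a median of 20.6 FPKM (0 to 80.7) in the 11 cells and 79.8 FPKM (0 to 169.1) in the 9, with overlapping ranges. Bcl11a was above 1 FPKM in 3 of 11 and 7 of 9 cells, with exact 95% intervals of 6.02% to 61% and 40% to 97.2%.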

How the data were processed

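The droplet data are UMI counts deposited by the authors, from Cell Ranger 2.0 on mm10 per the submitters' processing notes, and the C1 values are FPKM that the authors deposited from STAR 2.4.0 and RSEM 1.2.25. The libraries held 43734920 and 55522900 UMIs. The rule for the members, the gene lists and the tests were chosen with earlier results of these data known. Cells had at least 1000 genes and under 10% mitochondrial UMIs. UMIs were summed per library and class over 4 stages (progenitors as defined, cells with Flt3, cells with Il2ra and cells with Il2ra and Bcl11b), each split into 5 or more and 0 UMIs of the division genes. The 16 sums were fitted with edgeR 4.0.16 in R 4.3.3 (TMM scaling, filterByExpr with a minimum count of 10, library as block, 7 residual degrees of freedom), with Benjamini-Hochberg adjustment over all genes tested at 0.05. Every edgeR p and fold change is from this fit unless matched cells are named.

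For the match, cells of both classes were drawn in bins of 0.25 log2 UMIs within a library and stage, with 1 seeded draw. DESeq2 1.42.0 was an alternative. By rule the text names the 10 called genes of largest fold change in each direction that had a mean log2 CPM of 5 or more and agreed in sign between libraries, leaving out the division lists and predicted genes. It adds 10 listed regulators and up to 4 genes per list by smallest p. Other genes named beside a small count were chosen after their values were seen. In counts simulated without a difference between libraries, the test recovered large known changes in well-detected genes. The simulation does not cover small changes or differences between libraries. The sums cover sampling of UMIs only as far as the 2 libraries show it. Python 3.11.15, numpy 2.4.6, scipy 1.17.1, pandas 2.3.3 and matplotlib 3.10.9 were used. Bulk libraries were not used here.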

Additional observations from a re-analysis of the deposited data

Results flagged for a closer look

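In 12 genes the change from Top2a-zero to Top2a-high cells differed between progenitors and CD25-transcript cells by edgeR's test of the difference itself. On the log2 scale the change in progenitors minus that in CD25-transcript cells was -0.94 for Hbb-bt, -0.79 for Hist1h2bc, -0.70 for Lat, -0.67 for Fyb, -0.61 for Ccnd3, -0.60 for Tcf7, -0.59 for Cpa3 and -0.24 for H3f3b. It was 0.42 for Smc4, 0.45 for Cks2, 0.58 for H2afx and 0.58 for Tubb4b. Hbb-bt, Hist1h2bc and H3f3b have near-identical copies. Fyb, an adaptor of T-cell signalling, stood at 37.1 and 43.9 CPM in Top2a-high against 72.8 and 64 CPM in Top2a-zero progenitors, and at 95.4 and 99.3 against 103.7 and 100.5 CPM in CD25-transcript cells. Hist1h2bc stood at 95.4 and 63.6 against 99.9 and 107.3 CPM before Il2ra and at 93.2 and 64.8 against 56.1 and 63.9 CPM after it. All 12 calls were lost in cells matched on UMIs and without the library block, and their cause was not tested.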

How the results depend on the processing

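The counts of called genes held within 1.5 times under other size factors, no filter, the compared classes alone, thresholds of 3 and 10 UMIs, no Lmo2 and Mef2c rule, and without cells with defining markers of other types or the 5% of cells with the most UMIs. They moved under 4 settings. Top2a-high against Top2a-zero progenitors (3516) gave 2235 with DESeq2, 2112 with cells thinned to 4000 UMIs and 754 in matched cells. The test of the difference between changes (12) gave 5, 3 and 4, and Top2a-high progenitors against CD25-transcript cells (1061) gave 555, 428 and 490. Matching also cuts the number of cells. With no replicate block, so that the libraries were not paired, the 3 counts were 2273, 0 and 360. In the difference between changes, that 0 by edgeR came with 282 genes at an unadjusted p under 0.05. Both classes come from each library, which is where the pairing comes from.

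Of 251 called list genes that could also be tested in matched Top2a-high and Top2a-zero progenitors, 38 turned sign there, and 4 passed in both directions, Ldha (-0.58), Gapdh (-0.19), Prtn3 (-1.21) and Ctsg (-0.99). Among the genes named by the rule the sign turned for Ypel3 (0.042), Hhex (0.028), Bcl11a (0.00020), Ikzf2 (0.13), Tox (0.050), Gata3 (0.12), Klrd1 (0.10), Lag3 (0.19), Pgam1 (-0.081), Tpi1 (-0.14) and Car2 (0.072), and in the difference between changes for Tcf7 (0.19) and Cpa3 (0.00096). Leaving out either library in turn, Gata3 against CD25-transcript cells was between -0.86 (without replicate 2) and 0.0018 (without replicate 1). The cause was not tested. With 1 library left there was no test, so only fold changes were recomputed. Shares of Top2a-high cells were 23.7% and 19% from 3 UMIs, 10.0% and 6.81% from 10 UMIs, 8.51% and 7.53% in thinned cells and 14.6% and 14.5% in thinned cells from 3 UMIs. Leaving out cells with any 3 UMIs of the full lists of other cell types was not run, since it left under 10 cells in a class.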
